A study of Homo sapiens with 6 samples.

Results

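Heat shock proteins of the cytosol and of mitochondria were examined in SW620, a long-used human cell line from a lymph node metastasis of a colorectal cancer. The genes were taken by symbol from the deposited table: HSPA8, HSPA1A, HSPA1B, DNAJB1, HSPH1, HSP90AA1, HSP90AB1, HSPB1, HSPD1 and HSPE1, which are 10 of the 60605 genes in the table. All 10 passed the filter on low counts, as did 16003 genes in all.

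Poly(A) RNA was sequenced from 3 ELAPOR1 libraries, made from SW620 cells infected with lentivirus carrying ELAPOR1 in pLVX-IRES-Puro, and from 3 vector libraries, made from SW620 cells infected with the empty vector. Both groups received lentivirus at a multiplicity of 20, then puromycin at 2 ug/ml for selection, and were kept in medium with 10% serum. The labels record no other treatment and no heating. The comparison asks how overexpression of ELAPOR1, a transmembrane protein of endosomes and lysosomes, changes gene expression. The labels number the libraries within each group but do not state if separate infections, cultures or clones lie behind them, so p-values measure library-to-library spread only, and that spread may be technical.

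Heat shock proteins are chaperones that help other proteins fold and keep damaged ones from clumping. In the cytosol, J-domain proteins such as DNAJB1 hand unfolded clients to HSP70 proteins, nucleotide exchange factors such as HSPH1 release them, and HSP90 takes over many signalling proteins for their last folding steps. HSPD1 and its lid HSPE1 form the barrel-shaped chaperonin of the mitochondrial matrix. Under heat and other protein-damaging stress the transcription factor HSF1 binds heat shock elements, repeated GAA and TTC units, and switches many of these genes on, while HSPA8 and HSP90AB1 are also made at high levels in unstressed cells.

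Libraries held between 16401813 and 20571924 counts. ELAPOR1 itself stood at 21126 ± 362 CPM in ELAPOR1 libraries and 10.4 ± 1.47 CPM in vector libraries (SD, n = 3 each), and the groups stood apart as labelled. It took 2.06% to 2.12% of all counts in the ELAPOR1 libraries. The 8 colon epithelial markers summed to 7607 to 7620 CPM in ELAPOR1 libraries and 8012 to 8429 CPM in vector libraries, with CDX1 at no more than 2 counts in any. Of the 7 tested, EPCAM, KRT18 and VIL1 did not pass edgeR's test, KRT8, KRT19 and CDX2 were lower in ELAPOR1 cells by log2 fold changes of -0.14, -0.45 and -0.56, and CDH17 was higher by 1.05. Of markers of other cells, CDH5 and NEFM had no counts in any library, and the summed level of 3 kidney and neuronal markers was 0.0561 to 0.157 CPM in ELAPOR1 libraries and 0.0511 to 0.121 CPM in vector libraries. The 6 fibroblast markers summed to 24.9 to 30.1 CPM in ELAPOR1 libraries and 17.4 to 18.8 CPM in vector libraries, mostly from LUM, while COL1A2, COL3A1 and DCN had at most 2 counts in any library. Mitochondrially encoded genes, taken by the symbol prefix MT- and not limited to mRNAs, took 6.71% to 6.82% of counts in ELAPOR1 libraries. In vector libraries they took 6.33% to 6.41%. The 5 immune markers summed to 7.07 to 7.81 CPM in ELAPOR1 libraries and 5.08 to 7.61 CPM in vector libraries, and the 3 endothelial markers to 1.97 to 2.81 CPM in ELAPOR1 libraries and 2.42 to 2.73 CPM in vector libraries. The part of these differences in the results was not tested.

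HSPA1A and HSPA1B, the stress-inducible HSP70 genes, lie next to each other on chromosome 6, and their starts are 12195 bases apart. Their coding sequences of 1923 bases differ at 4 positions in GENCODE 29 transcripts, and the first 1709 bases are identical. Counted from 1 at the first base of the start codon, with the HSPA1A base before the position and the HSPA1B base after it, the differences are G1710T, G1860C, C1905T and A1920G. The stretch from coding position 1846 to 1920 is shown because it holds 3 of these 4 positions, marked by capitals (GRCh38, plus strand, chr6:31817602-31817676 for HSPA1A and chr6:31829796-31829870 for HSPA1B).
HSPA1A: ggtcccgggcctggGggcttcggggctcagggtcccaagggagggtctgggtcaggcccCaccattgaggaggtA
HSPA1B: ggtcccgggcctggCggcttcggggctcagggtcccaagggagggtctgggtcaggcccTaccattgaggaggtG
Of all windows of 100 bases along the HSPA1A transcript, 69.9% occur unchanged in the HSPA1B transcript, and 68.8% of HSPA1B windows occur in HSPA1A. A read from such a window cannot be assigned to one copy by its sequence.

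The sequences just upstream of these genes are also near copies, with 93.6% identity over the 250 bases before the RefSeq starts (GRCh38.p14). Bases 250 to 80 before each start are shown because they hold the pair of heat shock units that both genes share, in capitals (plus strand, chr6:31815293-31815463 for HSPA1A and chr6:31827488-31827658 for HSPA1B).
HSPA1A: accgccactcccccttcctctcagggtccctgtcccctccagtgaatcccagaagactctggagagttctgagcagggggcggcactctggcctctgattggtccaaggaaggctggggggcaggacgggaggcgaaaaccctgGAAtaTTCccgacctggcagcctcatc
HSPA1B: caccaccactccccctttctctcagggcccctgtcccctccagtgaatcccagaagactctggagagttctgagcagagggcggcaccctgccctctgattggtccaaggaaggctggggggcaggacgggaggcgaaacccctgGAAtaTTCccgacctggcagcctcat

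Heat shock units were searched in the 250 bases before each RefSeq start, as pairs (GAANNTTC or TTCNNGAA) and as triplets (GAANNTTCNNGAA or TTCNNGAANNTTC, which contain the pairs and are each other's reverse complement, so that both strands are covered). The 10 genes have 16 listed starts, and so 16 windows. A pair was found in 8 of these 16 windows, 1 for each of 8 genes, against 11.6% of all 35116 windows of this length. A triplet was found in 4 of the 16 windows, those of HSPA8, HSP90AA1, HSP90AB1 and HSPD1, against 0.441% of all windows. The HSPD1 triplets, at chr2:197500061-197500090, also lie before the deposited start of HSPE1 (197500140, plus strand). They fall outside the window of its RefSeq start at 197500379, so HSPE1 is counted without them. These matches describe letters and not binding. All sites of HSPA8, HSP90AA1 and HSPD1, and the site nearer the start of 2 in HSP90AB1 and of 2 in DNAJB1, are shown as 30 bases on the strand of the gene, with the units in capitals (HSPA8 at chr11:123062170-123062199 and chr11:123062345-123062374, HSP90AA1 at chr14:102087104-102087133, HSP90AB1 at chr6:44247823-44247852, HSPD1 at chr2:197500061-197500090 and DNAJB1 at chr19:14518426-14518455).
HSPA8, near site: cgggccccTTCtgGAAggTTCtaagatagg
HSPA8, far site: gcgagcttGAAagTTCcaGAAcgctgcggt
HSP90AA1: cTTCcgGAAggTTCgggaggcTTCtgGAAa
HSP90AB1: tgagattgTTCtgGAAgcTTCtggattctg
HSPD1: gcattTTCtgGAAagTTCtgGAAccgagcg
DNAJB1: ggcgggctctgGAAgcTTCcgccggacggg
The units of the HSPA8 sites begin 55 and 230 bases before its RefSeq start, and those of the DNAJB1 sites begin 47 and 77 bases before one of its RefSeq starts. The sites shown lie inside the deposited bounds of their genes, which reach further upstream than these starts. All 250 bases of the HSPA8 window and of the HSPD1 window lie in annotated exons, counted on either strand. Of these genes HSPA8 and DNAJB1 were lower in ELAPOR1 cells and HSP90AA1 was higher, while HSP90AB1 and HSPD1 did not pass the test, so genes with such units did not share a direction.

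Levels per exonic length spanned a wide range. In vector libraries HSP90AB1 ranked 27th of all genes of the table by mean FPKM, HSPA8 59th, HSP90AA1 66th, HSPD1 172nd and HSPE1 321st. HSPA1B ranked 6214th and HSPA1A 7595th, far below HSPA8. Most windows of these copies are shared, so if shared reads were left out of the counts, their levels, ranks and sum are too low. Together the 10 genes took 0.829% ± 0.00266 of all counts in ELAPOR1 libraries and 0.849% ± 0.0109 in vector libraries (SD, n = 3 each). Expressed without the counts of ELAPOR1 in the total, the mean difference between groups was -0.00214 percentage points, against -0.0198 with them.

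**Figure D1:**
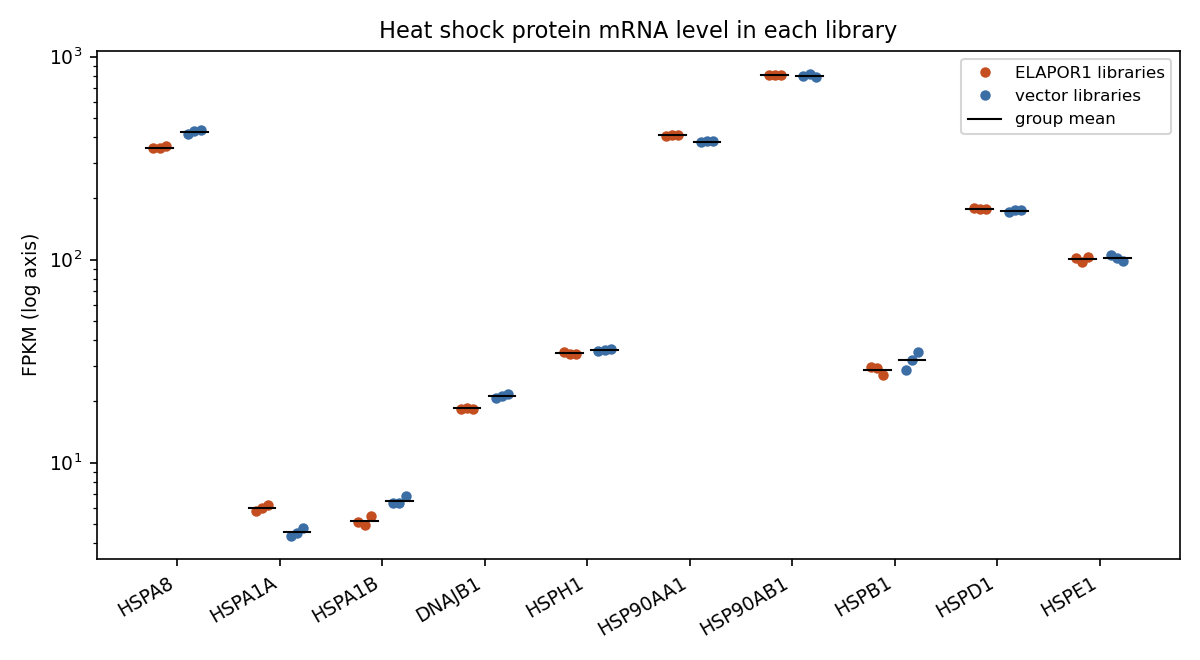
FPKM (log axis) of each heat shock protein gene in the 3 ELAPOR1 libraries (left of each pair) and the 3 vector libraries (right), with the group mean as a line. HSP90AB1 lies near 800 FPKM in both groups, and HSPA1A and HSPA1B lie between 4.37 and 6.86 FPKM with the groups displaced in opposite directions.

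Of the 10 genes, 5 differed between groups by edgeR's quasi-likelihood test with Benjamini-Hochberg adjustment over all genes, where 21.4% of all tested genes did. Among genes at least as abundant as the least abundant of the 10, HSPA1A at 10.9 CPM in vector libraries, the share called was 28.6%. Most of the 10 lie far above that level. Their median standard error was 0.035, against 0.096 for all tested genes, so smaller changes could be called among them and neither share is a matched background. HSPA1A and HSP90AA1 rose, where 10.0% of all tested genes were called higher, and HSPA8, HSPA1B and DNAJB1 fell, where 11.4% were called lower. CPM of the groups did not overlap for 6 of the 10, against 33.8% of all tested genes. HSPA1A and HSPA1B are among the 5, and with the counts of these copies summed only 3 were called. The median log2 fold change of the 10 genes was -0.01, beside 0.00 for all tested genes.

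HSPA8, the constitutive cytosolic HSP70 that also strips clathrin from endocytic vesicles (ENSG00000109971, GRCh38 chromosome 11, 123057489 to 123063230, minus strand), was lower in ELAPOR1 cells. It stood at 354, 354 and 361 FPKM in the ELAPOR1 libraries, against 417, 431 and 434 FPKM in the vector libraries. Every ELAPOR1 library lay below every vector library, and the gap between groups was wider than the spread inside either. The log2 fold change was -0.24 ± 0.024 (SE), with an adjusted p of 5.67e-13 by edgeR. It rested on 28263 to 43021 counts per library. In bulk RNA such as this, a lower level in each cell and fewer cells with the mRNA cannot be told apart.

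HSPA1A (ENSG00000204389, chromosome 6, 31815543 to 31817946, plus strand) had 227, 276 and 267 counts in ELAPOR1 libraries, against 204, 222 and 188 counts in vector libraries. HSPA1B (ENSG00000204388, chromosome 6, 31827738 to 31830254, plus strand) had 210, 238 and 247 counts in ELAPOR1 libraries, against 308, 328 and 283 counts in vector libraries. Scaled to CPM, HSPA1A was higher in every ELAPOR1 library than in any vector library, and HSPA1B was lower in every one. The log2 fold change was 0.42 ± 0.115 (SE) for HSPA1A, with an adjusted p of 0.00484, and -0.31 ± 0.108 for HSPA1B, with an adjusted p of 0.0270, both by edgeR.

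Added together, the copies did not pass the test. The sum was 26.9, 26.8 and 28.8 CPM in ELAPOR1 libraries, against 26.2, 26.6 and 28.6 CPM in vector libraries, and these ranges overlap. Its log2 fold change was 0.02, with a 95% interval of -0.14 to 0.18 and an adjusted p of 0.889 by edgeR. Of the summed counts, HSPA1A received 51.9%, 53.7% and 51.9% in ELAPOR1 libraries, against 39.8%, 40.4% and 39.9% in vector libraries. This share was looked at after the opposite changes were seen, and it has no test of its own. How the authors' counting treated reads that match both copies is not stated, so the values of the single copies are uncertain, and so is the level of their sum. The HSPA1B call was lost in some settings, with an adjusted p of 0.0993 by DESeq2, 0.0657 without ELAPOR1 replicate 1, 0.112 without ELAPOR1 replicate 2 and 0.109 without vector replicate 3.

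**Figure D2:**
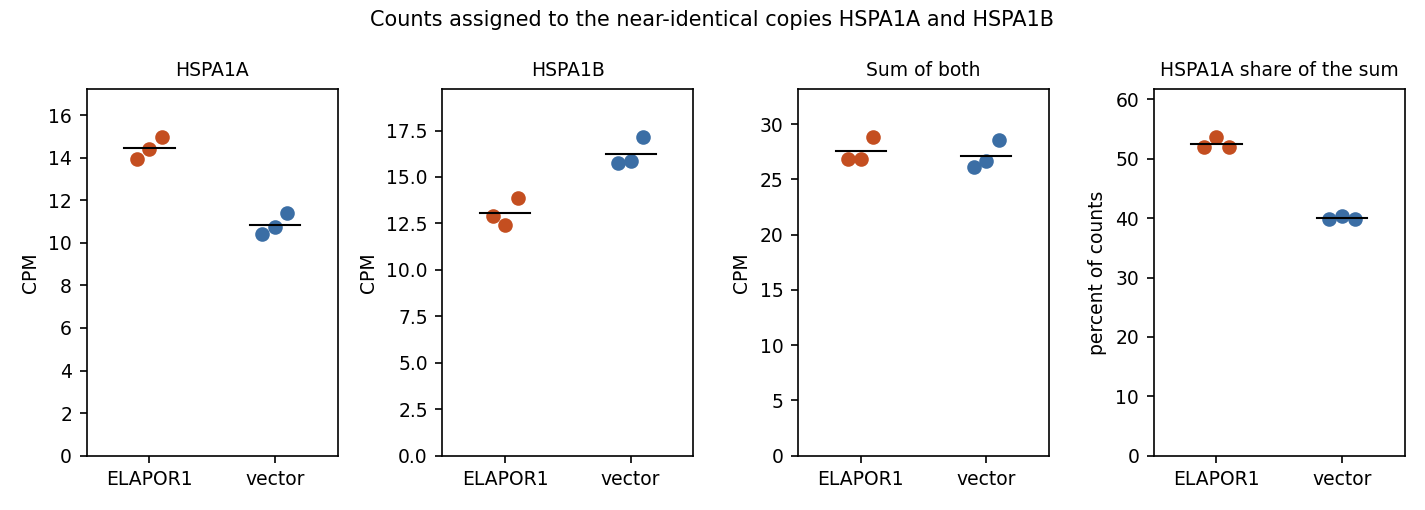
CPM of HSPA1A, of HSPA1B and of their sum, and the share of the summed counts assigned to HSPA1A (percent), in each ELAPOR1 library (left) and vector library (right), with group means as lines. The sums overlap between groups, at 26.8 to 28.8 CPM in ELAPOR1 libraries and 26.2 to 28.6 CPM in vector libraries, while the share assigned to HSPA1A is 51.9% or more in ELAPOR1 libraries and 40.4% or less in vector libraries.

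HSPA1L, the testis-enriched neighbour of this pair, had 24 to 44 counts per library and did not pass the test, with an adjusted p of 0.415. HSPA6, an HSP70 gene that is strictly heat-induced in human cells, had no counts in any of the 6 libraries.

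DNAJB1, the J-domain partner that delivers clients to HSP70 (ENSG00000132002, chromosome 19, 14514769 to 14560391, minus strand), was lower in ELAPOR1 cells. Its FPKM were 18.4, 18.7 and 18.4 in ELAPOR1 libraries and 20.7, 21.3 and 21.7 in vector libraries, with no overlap. The log2 fold change was -0.18 ± 0.038 (SE), with an adjusted p of 0.000219 by edgeR. The annotated gene overlaps TECR on the other strand, which had 7501 counts in all against 17922 for DNAJB1 and itself rose by 0.15 on the log2 scale. HSPH1, the HSP110 nucleotide exchange factor of HSP70 (ENSG00000120694, chromosome 13), stood at 35.02, 34.2 and 34.3 FPKM in ELAPOR1 libraries, against 35.6, 35.8 and 36.2 FPKM in vector libraries. Its log2 fold change of -0.03 had a 95% interval of -0.10 to 0.03 and an adjusted p of 0.531. Its CPM overlapped between groups, while its FPKM did not. FPKM were scaled by library totals, which hold the counts of ELAPOR1, and CPM also by TMM factors.

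HSP90AA1, the inducible cytosolic HSP90 (ENSG00000080824, chromosome 14, 102080742 to 102139699, minus strand), was higher in ELAPOR1 cells. It stood at 406, 413 and 410 FPKM in ELAPOR1 libraries, against 377, 384 and 382 FPKM in vector libraries, and the groups did not overlap. The log2 fold change was 0.13 ± 0.024 (SE), a rise of 9.14%, with an adjusted p of 2.00e-05 by edgeR. HSP90AB1, the constitutive HSP90 (ENSG00000096384, chromosome 6, 44246166 to 44253888, plus strand), stood at 810, 809 and 812 FPKM in ELAPOR1 libraries, against 799, 823 and 796 FPKM in vector libraries. The vector libraries lay on both sides of the ELAPOR1 ones. Its log2 fold change of 0.03 had a 95% interval of -0.02 to 0.08 and an adjusted p of 0.412.

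HSPB1, the small heat shock protein HSP27 that holds unfolded proteins and binds actin filaments (ENSG00000106211, chromosome 7, 76302673 to 76304295, plus strand), varied most within the groups. It stood at 29.6, 29.3 and 26.9 FPKM in ELAPOR1 libraries, against 28.5, 31.9 and 35.1 FPKM in vector libraries. The highest vector library was 1.23 times the lowest in CPM, and the groups overlapped. The log2 fold change was -0.13 ± 0.065 (SE), with an adjusted p of 0.157 by edgeR. Without vector replicate 1, the lowest of its group, the log2 fold change was -0.21 with an adjusted p of 0.0213, and without vector replicate 3, the highest, it was -0.06 with an adjusted p of 0.663.

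The mitochondrial chaperonin did not pass the test in either subunit. HSPD1, or HSP60, which forms the barrel (ENSG00000144381, chromosome 2, 197486584 to 197516737, minus strand), stood at 179, 178 and 178 FPKM in ELAPOR1 libraries, against 172, 176 and 175 FPKM in vector libraries. The groups did not overlap, but the log2 fold change was only 0.05 ± 0.025 (SE), with an adjusted p of 0.140 by edgeR. HSPE1, or HSP10, which forms the lid (ENSG00000115541, chromosome 2, 197500140 to 197503449, plus strand), stood at 102, 97.6 and 103 FPKM in ELAPOR1 libraries, against 105, 101 and 98.9 FPKM in vector libraries. The ranges overlapped, and its log2 fold change of 0.01 had a 95% interval of -0.07 to 0.08, an adjusted p of 0.939 and the opposite sign when scaled by library sizes alone. The annotated HSPD1 and HSPE1 overlap on opposite strands, and the use of strand in counting is not stated, so reads there cannot be told apart.

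**Figure D3:**
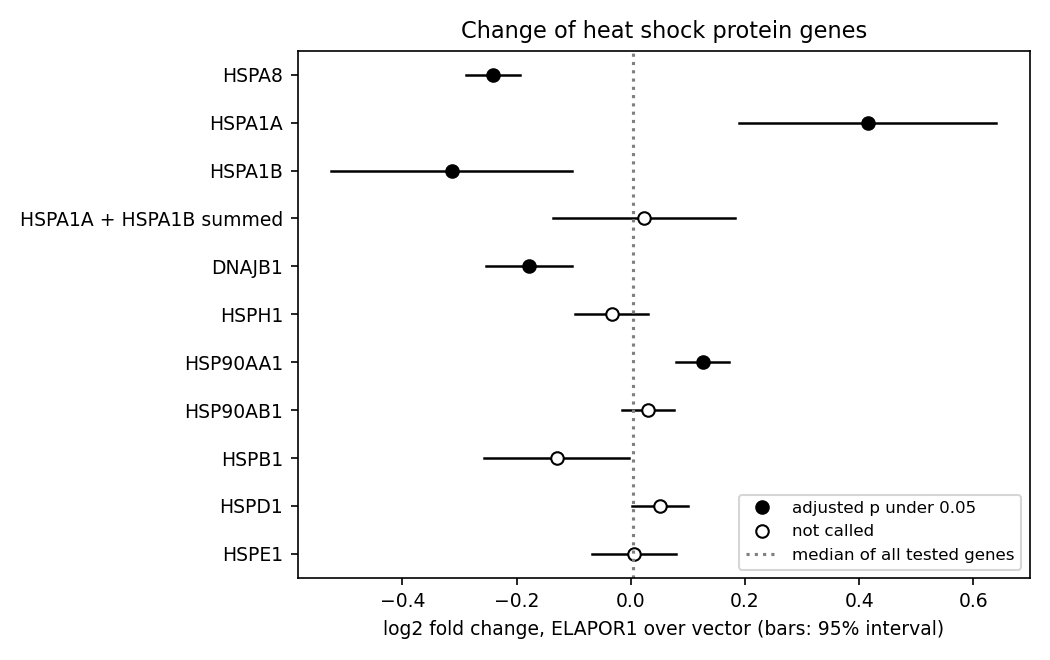
Log2 fold change, ELAPOR1 over vector, of each heat shock protein gene and of the sum of HSPA1A and HSPA1B, with approximate 95% intervals from the standard errors of edgeR. Filled points passed an adjusted p of 0.05. HSPA8, HSPA1B and DNAJB1 lie below 0 and HSPA1A and HSP90AA1 above, while the sum of the copies lies at 0.02.

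Processed pseudogenes, which are copies of spliced mRNAs, are common for these genes and can take reads from them. The table lists 26 pseudogenes of HSPE1, 18 of HSPD1, 17 of HSPA8, 5 each of the HSP90AA and HSP90AB families, 2 of HSPB1 and 1 of DNAJB1. Their summed counts came to between 0.0367% of the parent gene, for HSPA8, and 0.815%, for HSPD1, where a pseudogene had any count. The pseudogene with the most reads was HSPD1P1, at 118 to 185 counts per library, with a log2 fold change of -0.02 (adjusted p of 0.947). Of the 5 that were tested none passed by edgeR, with 0 at an unadjusted p under 0.05 and 0 by DESeq2. Adding pseudogene counts to the parents left 5 genes called, but sums of at most 0.815% of the parent could hardly move a call. How reads that match both a parent and a pseudogene were counted is not stated, so reads missing from both rows would not be seen.

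Ratios of partner mRNAs were taken within each library, which removes the scaling between libraries. Among 4 ratios, an exact two-sided permutation test of 3 against 3 libraries cannot give a p below 0.10. HSP90AA1 over HSP90AB1 was 0.501, 0.510 and 0.505 in FPKM in ELAPOR1 libraries, against 0.472, 0.466 and 0.480 in vector libraries. These did not overlap (exact p of 0.10, adjusted 0.133 over the 4 ratios). HSPA1A plus HSPA1B over HSPA8 was 0.0305, 0.0307 and 0.0322 in ELAPOR1 libraries, against 0.0256, 0.0251 and 0.0268 in vector libraries, with the same exact p. The summed copies alone had a log2 fold change of 0.02 and HSPA8 one of -0.24, so this ratio mostly restates the fall of HSPA8. The level of the sum is uncertain, as reads shared by the copies may be missing. HSPA8 is also the denominator of the next ratio. DNAJB1 over HSPA8 was 0.0518, 0.0528 and 0.0510 in ELAPOR1 libraries, against 0.0496, 0.0494 and 0.05002 in vector libraries, again without overlap and at the same exact p. Both genes fell, and HSPA8 by more. HSPE1 over HSPD1, the lid over the barrel, was 0.570, 0.548 and 0.580 in ELAPOR1 libraries and 0.613, 0.575 and 0.565 in vector libraries, which overlap (exact p of 0.50).

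**Figure D4:**
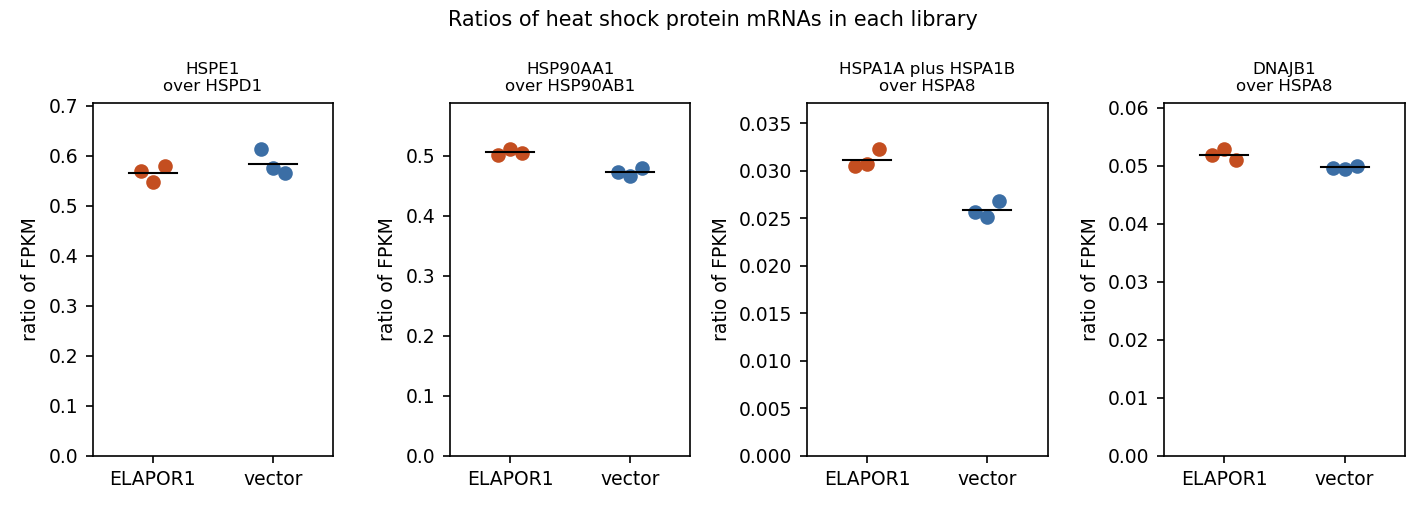
Ratios of FPKM within each ELAPOR1 library (left) and vector library (right), with group means as lines. The HSP90AA1 to HSP90AB1, HSPA1A plus HSPA1B to HSPA8 and DNAJB1 to HSPA8 ratios are higher in all 3 ELAPOR1 libraries than in any vector library, at an exact p of 0.10 each, and the HSPE1 to HSPD1 ratios overlap.

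The transcription factors that drive these genes did not pass the test. HSF1, the main stress-activated factor, averaged 42.5 ± 1.49 CPM in ELAPOR1 libraries and 45.3 ± 2.21 CPM in vector libraries, and HSF2, a related factor, averaged 44.3 ± 1.71 CPM in ELAPOR1 libraries and 46.6 ± 2.96 CPM in vector libraries (SD, n = 3 each). The adjusted p by edgeR was 0.335 for HSF1 and 0.495 for HSF2. None of 6 tested heat shock factors and regulators was called by edgeR, with 0 at an unadjusted p under 0.05 and 0 by DESeq2. The smallest p in that list belonged to HSBP1L1, with a log2 fold change of -0.38, at an adjusted p of 0.190. HSF1 is activated mainly at the protein level, which mRNA does not show.

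Other chaperone genes were read by lists, chosen with earlier results of these data known. The lists overlap, and a gene such as HSPA5, HYOU1, STIP1, FKBP4, DNAJA1 or DNAJA4 is counted in each list that holds it. Their counts stand beside 10.0% of all tested genes called higher and 11.4% called lower. These shares are by edgeR and are no matched background for lists that hold abundant genes. Among genes at or above the vector CPM of HSPA1A, 28.6% were called in either direction. DESeq2 called 2355 genes in all, against 3427 by edgeR. The share of all genes at an unadjusted p under 0.05 is not given, so those counts have no background. Of 10 other HSP70 and HSP110 genes tested, 1 rose and 3 fell. HSPA12A, a distant HSP70 relative, rose to 139 ± 6.46 CPM in ELAPOR1 libraries, against 92.2 ± 2.51 CPM in vector libraries (SD, n = 3 each), with an adjusted p of 1.44e-18 by edgeR. HSPA4, an HSP110 relative of HSPH1, fell by 0.18 on the log2 scale, and the endoplasmic reticulum chaperones HYOU1 and HSPA5 by 0.33 and 0.25. HSPA9, the HSP70 of mitochondria, had a log2 fold change of 0.03, at an adjusted p of 0.506.

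Among 14 J-domain cochaperones of the cytosol, 2 rose and 3 fell, with a median log2 fold change of -0.03. DNAJB2 fell by 0.35, DNAJA4 rose by 0.27 and DNAJC8 by 0.17. The calls of DNAJB2 and DNAJC8 were lost with limma on log2(FPKM + 1), at adjusted p of 0.0700 and 0.0550. Of 10 nucleotide exchange factors and other HSP70 cofactors, 2 rose and none fell by edgeR, with 1 lower at an unadjusted p under 0.05 and 0 lower by DESeq2. Those that rose were BAG2, at 71.2 ± 0.991 CPM in ELAPOR1 libraries and 58.5 ± 1.39 CPM in vector libraries, and the HSP70-interacting protein gene ST13, at 406 ± 6.96 CPM in ELAPOR1 libraries and 364 ± 4.69 CPM in vector libraries. BAG3, the stress-inducible member, had a log2 fold change of -0.22, at an adjusted p of 0.0877.

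HSP90 cochaperones went both ways, with 2 of 14 higher and 3 lower by edgeR, 1 higher and 2 lower by DESeq2, and a median of -0.02. CDC37, which brings kinases to HSP90, rose by 0.17, and the cyclophilin gene PPID fell by 0.19, as did STIP1, which links HSP70 to HSP90, by 0.12. The listed pseudogene AHSA2P rose by 0.20, but its adjusted p was 0.1005 by DESeq2, 0.254 and 0.252 with limma at pseudocounts of 1 and 0.1, and 0.0694 to 0.200 without ELAPOR1 replicate 3, vector replicate 1 or vector replicate 3. Of 9 other genes listed under small heat shock proteins, only HSPB11 was expressed enough to be tested. The list rests on gene names, and whether HSPB11 acts as a chaperone was not examined. It averaged 27.1 CPM in ELAPOR1 libraries and 22.6 CPM in vector libraries, with an adjusted p of 0.0194 by edgeR. That p was 0.0695 by DESeq2 and 0.0536 to 0.0833 without ELAPOR1 replicate 2 or 3 or vector replicate 2 or 3. HSPB2, HSPB3 and CRYAA had no counts, and CRYAB had at most 3 in any library.

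The cytosolic chaperonin TRiC, which folds actin and tubulin, and its feeder prefoldin had 5 of 14 genes lower and 1 higher, with a median of -0.06. The TRiC subunit CCT6A fell to 890 ± 22.8 CPM in ELAPOR1 libraries, against 1066 ± 35.2 CPM in vector libraries, with an adjusted p of 2.64e-12, and CCT4 fell by 0.22 on the log2 scale. Of the prefoldin genes PFDN6 rose by 0.27 and PFDN2 fell by 0.23. The PFDN2 call was lost without ELAPOR1 replicate 3, at an adjusted p of 0.0586. Mitochondrial chaperones and proteases had 3 of 15 higher and none lower by edgeR, with 1 lower at an unadjusted p under 0.05, and 2 higher and 0 lower by DESeq2. The median was 0.07. Higher were GRPEL2, a nucleotide exchange factor of HSPA9, at 0.21, TRAP1, the HSP90 of mitochondria, at 0.14, and the protease subunit gene AFG3L2 at 0.15. TRAP1 had an adjusted p of 0.0637 with limma on log2(FPKM + 1), and 0.0656 at a pseudocount of 0.1. The AFG3L2 call was lost in 10 of 17 alternatives, with adjusted p of 0.0847 by DESeq2, 0.0655 with library sizes alone, 0.0680 with no filter, 0.0639 and 0.0650 with limma, and 0.0560 to 0.116 without ELAPOR1 replicate 1 or 3 or any single vector library.

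Of 17 other heat-inducible genes tested, 3 rose and 6 fell, with a median of -0.07. SERPINH1, the collagen chaperone HSP47, fell to 108 ± 0.861 CPM in ELAPOR1 libraries, against 128 ± 0.185 CPM in vector libraries (SD, n = 3 each), a log2 fold change of -0.24. HMOX1, which encodes heme oxygenase and answers to oxidative stress as well as heat, rose by 1.14 on the log2 scale, on few counts. It had 45, 40 and 40 counts in ELAPOR1 libraries, against 21, 18 and 21 in vector libraries, and its adjusted p was 0.0678 without ELAPOR1 replicate 1 and 0.0536 without vector replicate 2. In the endoplasmic reticulum, 10 of 13 chaperone genes fell, with a median of -0.16 and DNAJB9 lowest at -0.65. None rose by edgeR, with 1 higher at an unadjusted p under 0.05 and 0 by DESeq2, and DESeq2 called 8 lower. The calls in that list include SDF2L1 at -0.35, whose adjusted p was 0.124 by DESeq2, 0.193 and 0.195 with limma at pseudocounts of 1 and 0.1, and 0.0644 to 0.303 without ELAPOR1 replicate 1 or vector replicate 2 or 3.

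Immediate early genes, which respond within minutes to handling and growth signals, had 3 of 10 lower and 1 higher, with a median of -0.16. DESeq2 called 1 higher and 1 lower. By edgeR, JUNB fell by 0.29, EGR1 by 0.17 and JUN by 0.16, and MYC rose by 0.13. The JUNB call was lost without vector replicate 1 or 2, at adjusted p of 0.0550 and 0.0501. EGR1 lost its call without ELAPOR1 replicate 1 or 3 or vector replicate 2 or 3, at 0.0958 to 0.125, and by DESeq2, at 0.0993. JUN lost it without ELAPOR1 replicate 2 or 3, at 0.125 and 0.0679, and by DESeq2, at 0.0523. The part of these genes in the heat shock results was not tested.

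**Figure D5:**
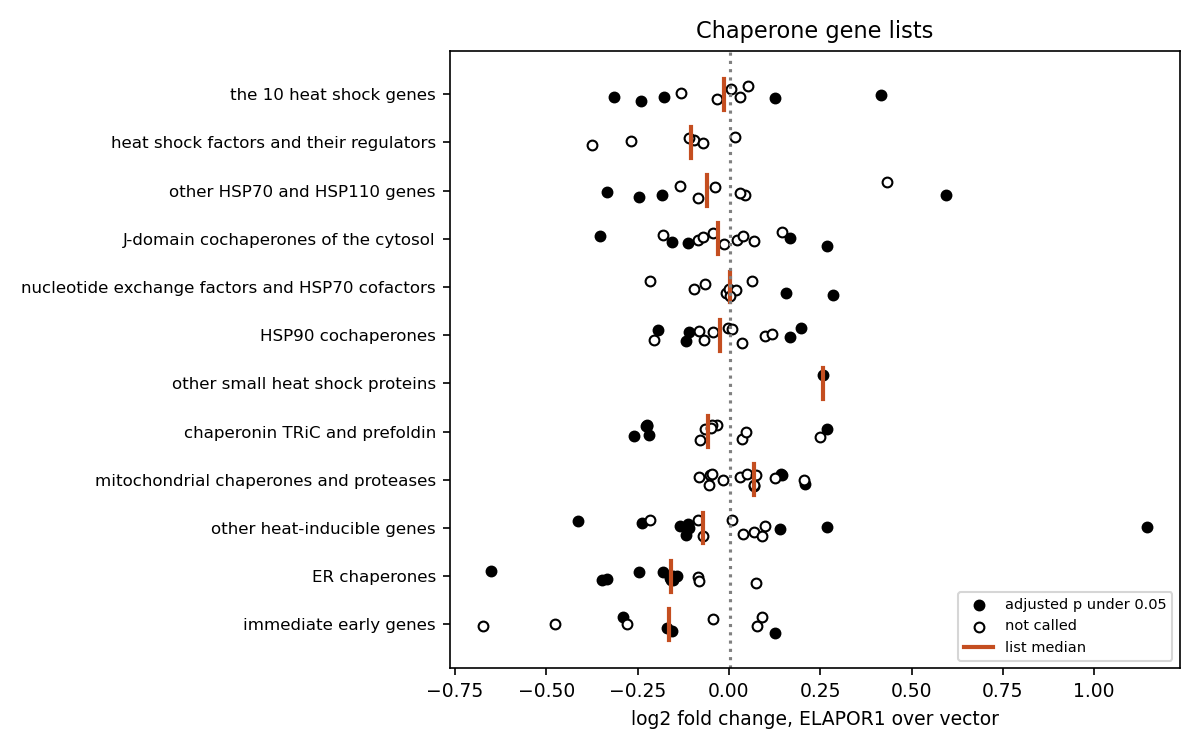
Log2 fold change, ELAPOR1 over vector, of tested genes in the heat shock set and in 11 other lists. Each point is a gene, filled where its adjusted p was under 0.05, and the bar is the list median, with the median of all tested genes as a dotted line. The median is -0.01 for the 10 heat shock genes and -0.16 for ER chaperones.

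HSPA1A had the largest absolute log2 fold change of the 10, so its profile over the 6 libraries was compared with those of 9698 other tested genes of at least 10 CPM. The measure of likeness was the root mean square difference of centred log2(CPM + 1). The 5 nearest genes were PCLAF, CROCCP2, ANXA3, NQO1 and FOXP1, at 0.0306 to 0.0358. They were picked for following HSPA1A, so their group differences come with that choice and are no separate result. The HSPA1A profile is that of a single copy, and the sum with HSPA1B did not pass the test. PCLAF, a replication clamp partner, averaged 27.2 CPM in ELAPOR1 libraries and 20.5 CPM in vector libraries, and NQO1, a quinone reductase, averaged 855 CPM in ELAPOR1 libraries and 667 CPM in vector libraries. The FOXP1 call was lost with limma on log2(FPKM + 1), at an adjusted p of 0.352.

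Set beside the authors' deposited table, the directions were the same for all 10 genes. That table rests on the same 6 libraries, so the match is no independent support. The authors' deposited table gave adjusted p under the threshold for 19.1% of its genes, and for HSPA8, HSP90AA1, DNAJB1, HSPA1A and HSPA1B among these. Its values for HSPA8 were a log2 fold change of -0.24, at an adjusted p of 2.67e-23, and for HSPA1B -0.32 and 0.0307. By DESeq2 as run here HSPA1B had an adjusted p of 0.0993, above the threshold. The submitters' notes also list DESeq2, and the source of this difference was not tested.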

How the data were processed

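Raw read counts per gene were deposited. The submitters' processing notes list HTSeq 0.6.1, cutadapt 1.9.1, DESeq2 and HISAT2 2.0.1, with GRCh38 as the build. FPKM values were also deposited by the authors, and 142222 of 142222 nonzero values could be recomputed, to within 0.01, from counts, library totals and exonic lengths. The authors' second deposited table holds mean signal, log2 fold changes, test scores and p-values of their own comparison. Columns were matched to libraries by name, with K read as ELAPOR1 (older symbol KIAA1324) and NC as the empty vector.

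The test on counts was that of edgeR 4.0.16, run in R 4.3.3 (filterByExpr, TMM, quasi-likelihood test, two-sided, Benjamini-Hochberg adjusted p under 0.05 over all 16003 genes tested). CPM values use the TMM factors. Standard errors were obtained by dividing the absolute log2 fold change by the root of F, and 95% intervals are normal approximations. The calculation was tested on simulated counts. Pairs of libraries of a group had a mean chi-square per gene of 2.45 to 3.64, above the 1 that sampling noise gives, so none was merged.

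The genes and lists were chosen with earlier results of these data known. Named from each list were up to 3 called genes with the largest change, or the smallest p where none passed, with HSF1 and HSF2; some genes that this rule selects are not reported here. HSPA4, HSPA9, HSPA6, HSPA1L, BAG3, STIP1, CCT4, SERPINH1, MYC and the genes listed at few counts were added after their values were seen. Alternatives were DESeq2 1.42.0, other scalings and filters, a replicate block, limma 3.58.1 on log2 FPKM (pseudocount 1 or 0.1, for genes reaching 0.5 FPKM in 3 libraries), summed copies and each library left out. Sequences are from RefSeq (GRCh38.p14) and GENCODE 29.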

Additional observations from a re-analysis of the deposited data

How the results depend on the processing

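Of 170 alternative values for the 10 genes, 157 kept their direction and side of the threshold. HSPA8, HSP90AA1 and DNAJB1 kept their calls in all 17 alternatives, with log2 fold changes of -0.26 to -0.23, 0.10 to 0.13 and -0.20 to -0.16. With HSPA1A and HSPA1B summed, 3 genes were called, and the log2 fold change of 0.0233 replaced both the rise of HSPA1A and the fall of HSPA1B. HSPE1, which was not called, changed sign with library sizes alone (-0.02), with limma on log2(FPKM + 1) or log2(FPKM + 0.1) (-0.0146 and -0.0148), and without ELAPOR1 replicate 1, ELAPOR1 replicate 3 or vector replicate 3, where leaving out single libraries gave -0.0145 to 0.0308. The count of 3427 genes over the transcriptome was 2133 and 2098 with limma on FPKM at pseudocounts of 1 and 0.1, where the cause was not tested, and 2245 at an adjusted p under 0.01, a stricter threshold. Leaving out 1 library gave 2723 to 3187 genes, 4 to 6 of the 10, and a difference in their share of counts of -0.0258 to -0.0150 percentage points. That difference was -0.00214 points with ELAPOR1 left out of the total. With the replicate block 3361 genes and 5 of the 10 were called. For ELAPOR1 and vector libraries sharing a number, deviations from group means correlated at -0.0156, -0.0256 and -0.0161, which gives no sign that the numbers pair libraries. The ratios kept their direction under all alternatives tried, with log2 differences over the libraries left out of -0.07 to -0.01 for HSPE1 over HSPD1, 0.09 to 0.11 for HSP90AA1 over HSP90AB1, 0.25 to 0.30 for HSPA1A plus HSPA1B over HSPA8 and 0.05 to 0.07 for DNAJB1 over HSPA8. Of 31 other called genes that the rule for named genes selects, 18 kept their call in all alternatives and 13 lost it in at least 1, with no change of direction.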
